A study of Mus musculus with 7 samples.

Results

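Genes of cytosolic translation initiation and elongation factors were read in the heart apex of mice whose cardiomyocytes had been made to recombine Akt1 and Akt2, kinases downstream of insulin and other growth factors. The members were the genes with an NM accession on the array and a symbol starting with Eif1 to Eif5, Eef1 or Eef2, and their close relatives with such names (binding proteins, methyltransferases of the elongation factors, the eEF2 kinase) were kept in. The eIF2 kinases (Eif2ak genes), Eif4ebp1 and the Y-linked Eif2s3y were left out by the rule. Of 63 such genes, 62 exceeded background clearly on 3 or more of the 7 arrays, out of 23678 genes measured in all, and each was represented by its brightest probe. The gene that did not pass was Eef1akmt3, above background on 0 arrays. Each of the 62 was well above background on all 7 arrays, so none entered through a single group.

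Single-colour Agilent arrays measured total RNA from 4 control and 3 double knockout (DKO) hearts, each from a male C57Bl/6 mouse. All 7 mice were heterozygous for the MerCreMer recombinase under the alpha myosin heavy chain (MHC) promoter, which is active in cardiomyocytes. The DKO mice were also homozygous for loxP-flanked (flox/flox) AKT1 and AKT2 alleles. Controls carried no floxed allele according to the labels. Hydroxytamoxifen, which activates the recombinase, was given to all mice at 3 months of age in 5 daily doses of 500 µg, and hearts were taken 10 days after induction, with no further treatment. Cells of the apex other than cardiomyocytes keep Akt1 and Akt2, and in such bulk RNA fewer cells of a type and less RNA per cell cannot be told apart. The question was how transcripts of the heart differ once both kinases are lost from cardiomyocytes.

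Translation starts when initiation factors load the initiator tRNA onto the small ribosomal subunit and bring it to a capped mRNA. eIF1 and eIF1A keep the scanning subunit open, eIF2 carries the initiator tRNA, and eIF2B reloads eIF2 with GTP. eIF3 is the many-subunit scaffold. eIF4E binds the cap, eIF4G bridges it to the ribosome, and eIF4A unwinds the mRNA with help from eIF4B and eIF4H. eIF5 and eIF5B complete subunit joining, and eEF1 and eEF2 then deliver aminoacyl-tRNAs and move the ribosome along. Akt and mTORC1 act on this machinery largely through phosphorylation, and many of its mRNAs, such as those of eEF2 and eEF1A, carry a tract of pyrimidines at their start through which mTORC1 controls their own translation. An array of total RNA sees neither of these.

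Of the 62 genes, 4 rose in DKO hearts and 0 fell. They were Eef2, the translocase of elongation, Eif4b, the cofactor of the eIF4A helicase, Eif1, the start codon fidelity factor, and Eif4a2, a form of that helicase. Over all genes 4.54% passed the test (limma, Benjamini-Hochberg adjusted p under 0.05), 2.25% as higher and 2.28% as lower in DKO, so the share of 4 in 62 (6.45%) lies near the background for calls in either direction. The rises were small, between 1.28-fold and 1.48-fold. Of the 62 genes, 17 were higher and 0 lower at an unadjusted p under 0.05. The same threshold gave 2677 higher and 3338 lower among all 23678 genes, and 1045 higher and 675 lower among the 5920 brightest.

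The stretches before the transcription start of these 4 genes are shown because these are the members that rose, and their motifs can be compared. They are the 250 bases before the start, from RefSeq on build GRCm38.p6, on the plus strand: chr10:81176381-81176630 for Eef2, chr11:100319699-100319948 for Eif1, chr16:23107218-23107467 for Eif4a2 and chr15:102073523-102073772 for Eif4b. Capitals mark the E-box CACGTG, the core TGACG of the cAMP response element (CRE) and the GC box GGGCGG, each on either strand.
Eef2: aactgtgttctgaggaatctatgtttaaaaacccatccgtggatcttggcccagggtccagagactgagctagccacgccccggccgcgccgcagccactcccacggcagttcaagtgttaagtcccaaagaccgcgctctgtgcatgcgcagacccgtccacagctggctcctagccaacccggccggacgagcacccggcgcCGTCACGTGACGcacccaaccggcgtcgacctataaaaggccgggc
Eif1: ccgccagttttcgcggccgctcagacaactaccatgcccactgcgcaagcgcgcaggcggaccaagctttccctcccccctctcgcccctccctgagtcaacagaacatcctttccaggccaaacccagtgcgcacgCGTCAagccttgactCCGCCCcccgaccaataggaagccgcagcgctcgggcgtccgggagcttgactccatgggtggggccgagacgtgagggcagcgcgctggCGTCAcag
Eif4a2: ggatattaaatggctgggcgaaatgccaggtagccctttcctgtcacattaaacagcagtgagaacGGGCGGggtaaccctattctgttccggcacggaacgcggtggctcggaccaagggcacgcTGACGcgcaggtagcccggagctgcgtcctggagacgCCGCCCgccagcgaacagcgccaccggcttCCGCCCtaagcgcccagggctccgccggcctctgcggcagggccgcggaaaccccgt
Eif4b: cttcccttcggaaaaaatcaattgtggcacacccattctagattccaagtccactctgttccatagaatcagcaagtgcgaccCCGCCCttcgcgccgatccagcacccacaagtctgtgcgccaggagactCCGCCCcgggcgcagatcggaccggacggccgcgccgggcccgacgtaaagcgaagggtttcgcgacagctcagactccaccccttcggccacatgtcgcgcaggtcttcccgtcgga

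The only E-box among the 4 began 43 bases before the start of Eef2, and overlapped a CRE core on either side, beginning at 46 and 39 bases. Eif1 had CRE cores at 113 and 8 bases and a GC box at 98. Eif4a2 had a CRE core at 124 bases and GC boxes at 184, 87 and 57, and Eif4b had GC boxes at 167 and 118. RefSeq promoter entries were found for 49 of the 62 genes. Of these, 13 (26.5%) held an E-box, against 9.38% of the promoters of measured genes and 6.86% of all promoters. A CRE core stood in 22 (44.9%, against 28.3% and 19.8%) and a GC box in 36 (73.5%, against 59.0% and 35.4%). The FoxO motif GTAAACA, searched on both strands and bound by factors that Akt holds out of the nucleus, was in 0 of 49, against 2.82% of promoters of measured genes and 3.54% of all. These matches describe the letters in this window and say nothing on whether a factor binds there.

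The normalized log2 signals separate the groups for each of the 4. Eef2 read 15.89, 15.88, 15.93 and 15.90 in control replicates 1 to 4 and 16.33, 16.35 and 16.38 in DKO replicates 1 to 3. The lowest DKO heart lay above the highest control, and the difference was 0.45 ± 0.06 on the log2 scale (standard error; 1.37-fold, adjusted p = 0.0159).
Eif4b read 12.28, 12.45, 12.49 and 12.50 in the controls and 12.94, 13.02 and 13.02 in the DKO hearts. Every DKO heart stood above every control, with a difference of 0.57 ± 0.08 (1.48-fold, adjusted p = 0.0175).
Eif4a2 read 13.91, 13.88, 13.94 and 13.87 in the controls and 14.29, 14.21 and 14.27 in the DKO hearts. The groups did not overlap and differed by 0.36 ± 0.06 (1.28-fold, adjusted p = 0.0321).
Eif1 read 15.89, 15.80, 15.68 and 15.75 in the controls and 16.17, 16.16 and 16.22 in the DKO hearts, again with no overlap. Its difference was 0.40 ± 0.08 (1.32-fold, adjusted p = 0.0358).

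**Figure D1:**
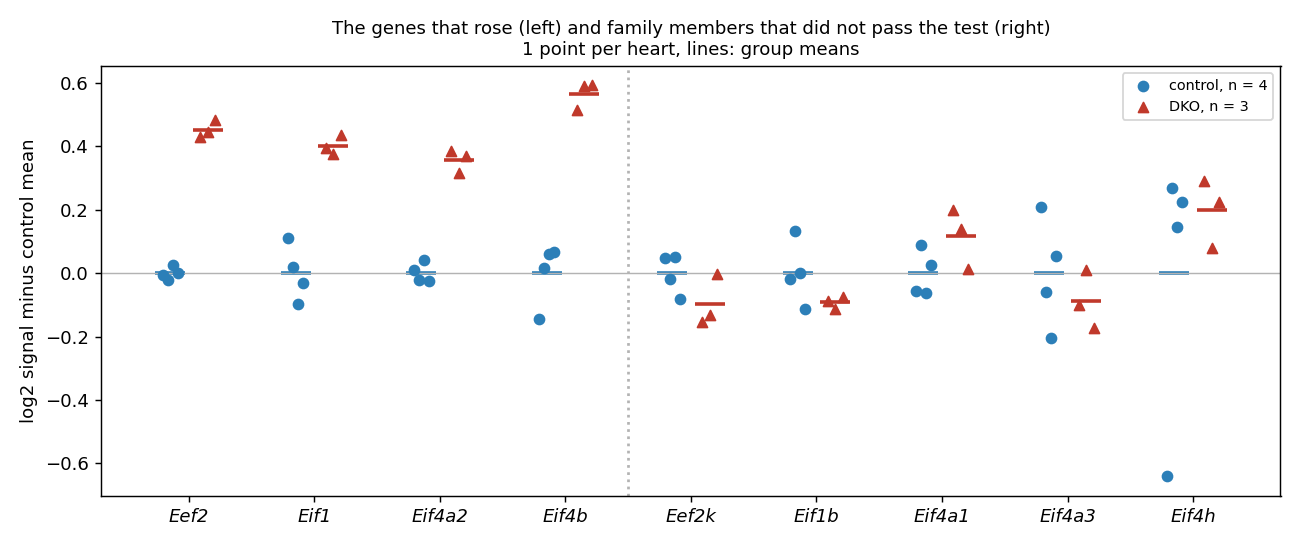
Log2 signal of single hearts minus the gene's control mean, for the 4 genes that rose (left of the dotted line) and 5 relatives that did not pass the test (right); circles are the 4 controls, triangles the 3 DKO hearts and lines the group means. The DKO hearts lie above all controls for Eef2, Eif1, Eif4a2 and Eif4b, while the groups overlap for each of the 5 relatives, and control replicate 1 lies far below the rest for Eif4h.

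None of the 4 calls held in all 7 fits that left out a single heart, although the differences stayed between 0.34 and 0.59. Eef2 missed the threshold without control replicate 4 (adjusted p = 0.061), DKO replicate 1 (0.0632), DKO replicate 2 (0.0611) and DKO replicate 3 (0.057), and Eif4b missed it without the same hearts (0.0566, 0.0629, 0.0666 and 0.0609). Eif1 passed only without control replicate 1 (0.0393) and missed without control replicates 2 (0.0577), 3 (0.078) and 4 (0.104) and DKO replicates 1 (0.109), 2 (0.0989) and 3 (0.108). Eif4a2 missed in all 7, at 0.0559, 0.0573, 0.067 and 0.0964 without control replicates 1 to 4 and at 0.109, 0.0846 and 0.0941 without DKO replicates 1 to 3.

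The 7 arrays filled positions in both rows of the slide. Row 1 held 3 controls and 1 DKO heart and row 2 held 1 control and 2 DKO hearts. Within row 1 the differences of Eef2, Eif1, Eif4a2 and Eif4b were 0.48, 0.44, 0.36 and 0.60, and within row 2 they were 0.46, 0.37, 0.37 and 0.54. With the row as a block the adjusted p-values were 0.0501 for Eef2, 0.0921 for Eif1, 0.0794 for Eif4a2 and 0.0576 for Eif4b, so that the calls ended although the differences did not shrink. Among other settings, quantile normalization ended the calls of Eif1 (0.0706) and Eif4a2 (0.102), normexp background correction those of Eif4a2 (0.0735) and Eif4b (0.0698), and normexp with quantile normalization those of Eef2 (0.0543), Eif1 (0.0631) and Eif4a2 (0.193). Without a filter on dim probes all 4 calls ended, at 0.108 for Eef2, 0.163 for Eif1, 0.165 for Eif4a2 and 0.0968 for Eif4b.

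Other probes bear on the 4 genes as well. Eef2 had another pair of probes on the array, and Eif1, Eif4a2 and Eif4b each had a second one. The differences at these 5 probes were 0.52 and 0.55 for Eef2, 0.52 for Eif1, 0.54 for Eif4a2 and 0.62 for Eif4b. Adjusted over all probes they passed at 3: the brighter of the Eef2 pair (adjusted p = 0.0241), Eif1 (0.0161) and Eif4b (0.0156). The dimmer Eef2 probe (0.0607) and the second Eif4a2 probe (0.102) did not. All 5 were higher in DKO. Of the 62 genes, 22 had several such probes (51 in all), and for 12 of the 22 every probe differed in the same direction. Eif2s3x was among those that did not, with -0.11 at its brightest probe and 0.38 at its second.

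**Figure D2:**
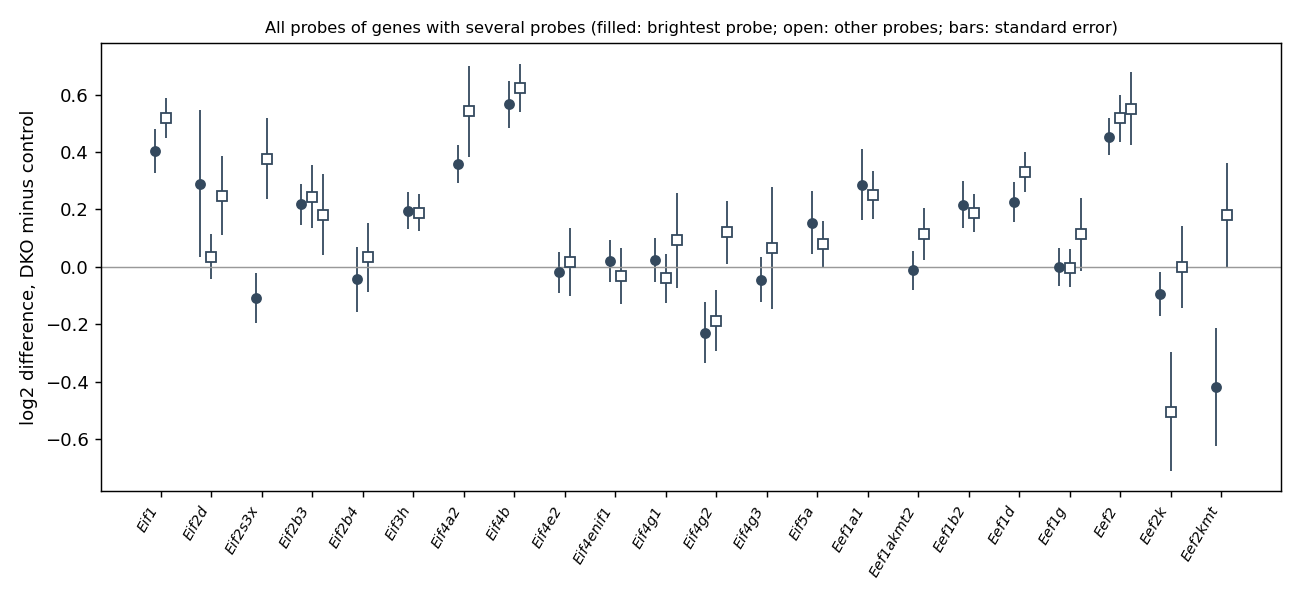
Log2 difference, DKO minus control, at every NM probe of the genes with several probes; filled circles are the brightest probe, open squares the others, and bars the standard error. All probes of Eef2, Eif1, Eif4a2 and Eif4b lie above 0, while probes of Eef2kmt and Eif4g2 lie on both sides of it.

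Across the whole set the differences were mostly small and leaned upward. In DKO hearts 41 genes were higher and 21 lower (66.1% higher, against 46.1% of all genes, 53.2% of genes with a symbol and 57.0% of the 5920 brightest genes). The median difference was 0.11, against -0.02 over all genes, 0.02 over genes with a symbol and 0.04 over the 5920 brightest. Quantile normalization, which forces the arrays to a common distribution, brought the median to 0.04 and the number higher to 36, and leaving out control replicate 1 brought the median to 0.06. In single arrays the median of the 62 genes relative to their control means was -0.02, 0.03, -0.01 and -0.01 in control replicates 1 to 4 and 0.09, 0.09 and 0.10 in the DKO replicates, and the groups did not overlap. Of the 62 genes, 21 had every DKO heart above every control and 2, the methyltransferase genes Eef1akmt1 and Eef2kmt, had every DKO heart below. Over all genes 25.6% had groups without overlap, 12.8% as higher and 12.8% as lower. Among the 5920 brightest genes 22.6% had DKO hearts above all controls, against 33.9% of the 62. The median control standard deviation was 0.08 for the 62 genes, 0.10 over the 5920 brightest, 0.13 over genes with a symbol and 0.16 over all genes.

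**Figure D3:**
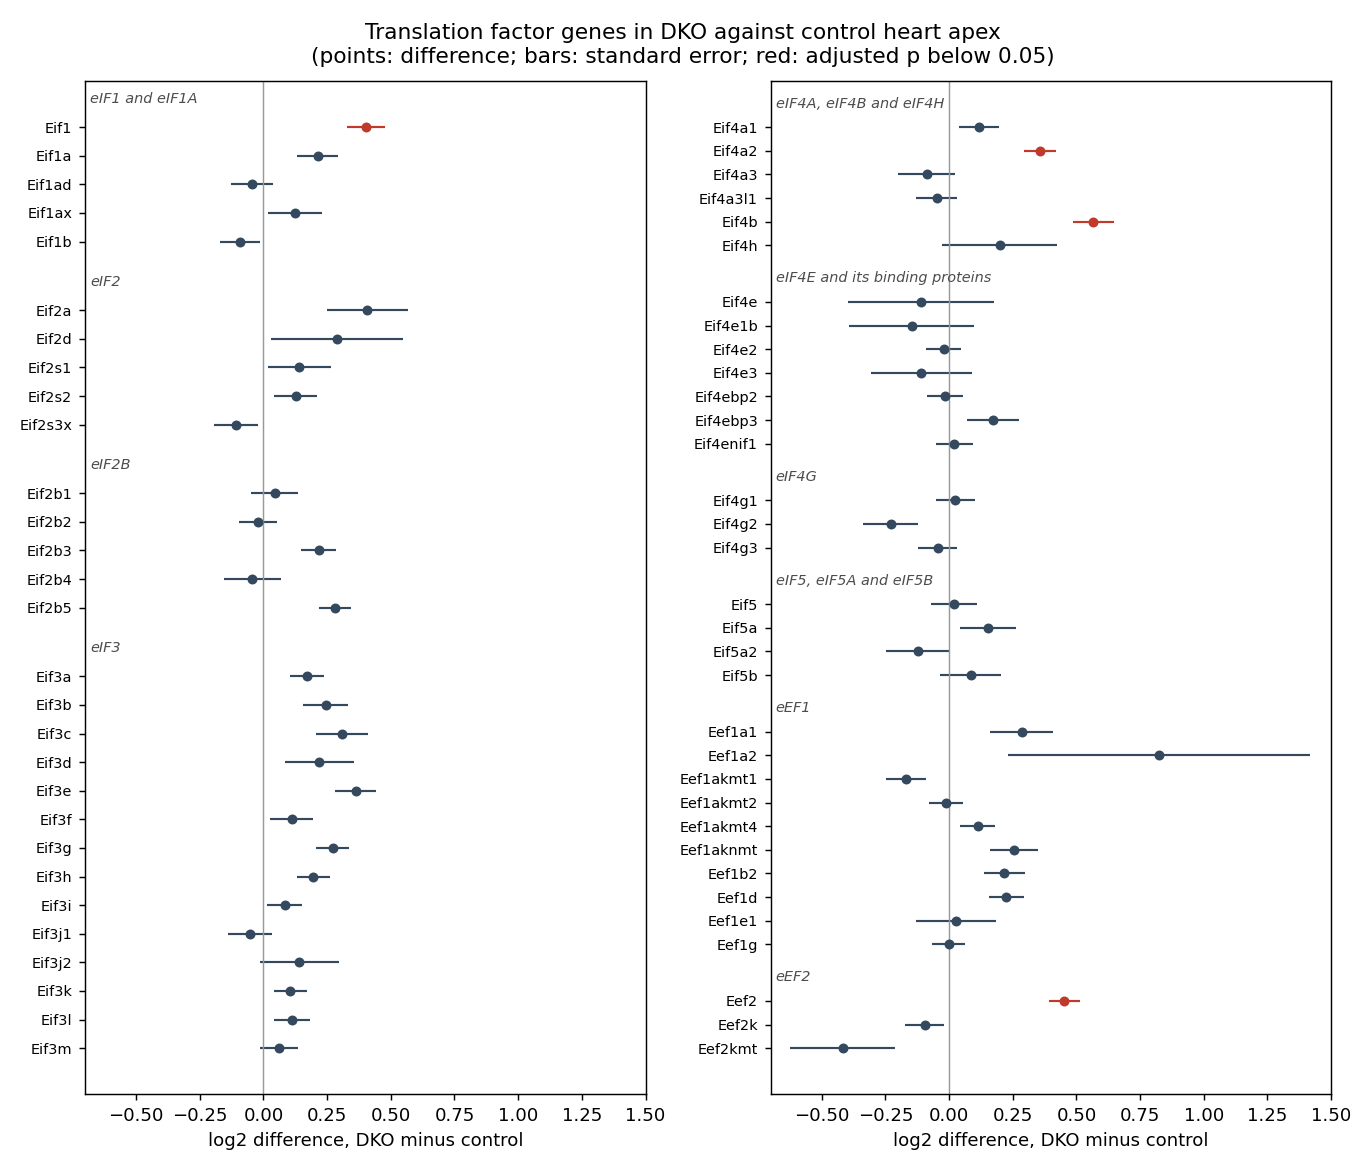
Log2 difference, DKO minus control, for the 62 genes by role, with points for the difference, bars for its standard error and red for an adjusted p under 0.05. Most eIF3 points lie above 0 under the main normalization (13 of 14, but 9 of 14 after quantile normalization), and the red points are Eif1, Eif4a2, Eif4b and Eef2.

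**Figure D4:**
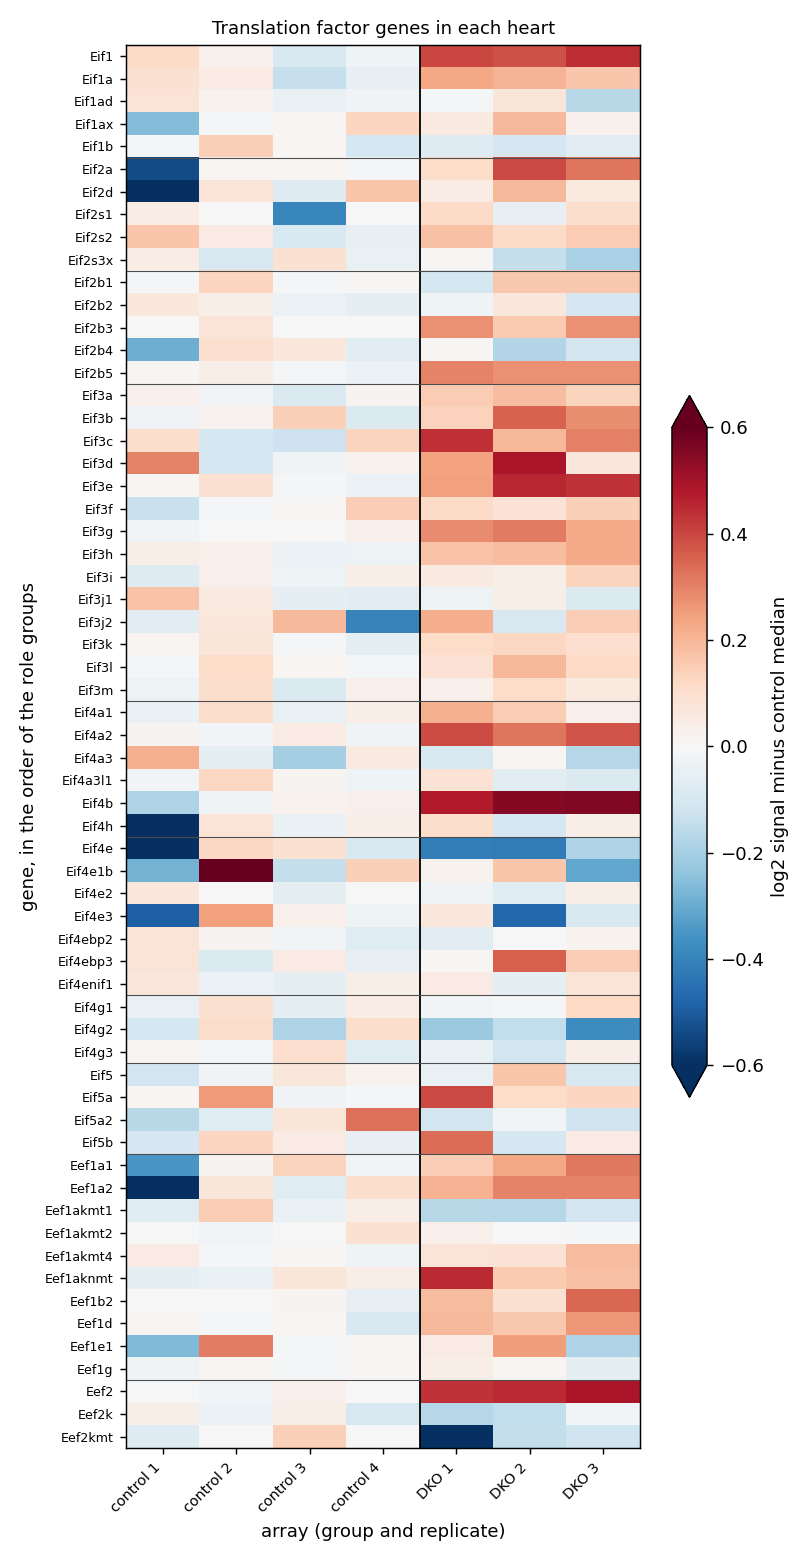
Normalized log2 signal of the 62 genes in each heart minus the gene's control median, as a colour from blue (lower) to red (higher) that saturates beyond 0.6; rows follow the role groups and columns are the 4 control and 3 DKO arrays. Control replicate 1 is dark blue for Eif2a, Eif2d, Eif4h, Eif4e and Eef1a2, and the rows of Eif1, Eif4a2, Eif4b and Eef2 are red in all 3 DKO hearts.

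Control replicate 1 stood apart for some of these genes, and the values it moves most are given with and without it. It correlated at 0.984 to 0.987 with the other controls over all genes, while those correlated at 0.992 to 0.994 with each other, and it had 249 spots with an outlier flag, against 78 to 153 on the other arrays. Eef1a2, the elongation factor eEF1A form that adult muscle uses, read 11.15 there and 13.56, 13.41 and 13.59 in control replicates 2 to 4. The DKO hearts read 13.69, 13.78 and 13.78. Its difference of 0.82 ± 0.59 (adjusted p = 0.42) became 0.23 ± 0.08 (adjusted p = 0.163) without control replicate 1. The other form, Eef1a1, whose many processed pseudogenes make its probes uncertain, read 13.50, 13.86, 13.98 and 13.83 in the controls and 14.00, 14.08 and 14.16 in the DKO hearts. Neither form passed the test, with a difference for Eef1a1 of 0.29 ± 0.12 (adjusted p = 0.204) with control replicate 1 and 0.19 without it. The second Eef1a1 probe read 11.28 in control replicate 1, within the 11.22 to 11.29 of the other controls, and 11.39 to 11.64 in the DKO hearts. It differed by 0.25 ± 0.08 and did not pass among probes (adjusted p = 0.128).

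Among the scanning factors Eif1 was the only gene that passed. Its relative Eif1b, a near copy of Eif1, read 12.62, 12.78, 12.64 and 12.53 in the controls and 12.55, 12.53 and 12.57 in the DKO hearts. The hearts overlapped and the difference was -0.09 ± 0.08 (adjusted p = 0.496). Eif1a, a form of the eIF1A factor, read 9.63, 9.60, 9.41 and 9.50 in the controls and 9.78, 9.75 and 9.71 in the DKO hearts. Its groups did not overlap, but the difference of 0.21 ± 0.08 did not pass (adjusted p = 0.157). The X-linked form Eif1ax differed by 0.12 ± 0.11, or by 0.05 ± 0.09 without control replicate 1, and Eif1ad, an eIF1A domain gene, by -0.04 ± 0.08. Both had overlapping groups.

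None of the 5 genes read for eIF2 and its relatives passed. The 3 subunit genes, Eif2s1 (the alpha subunit whose phosphorylation stalls initiation), Eif2s2 and Eif2s3x, differed by 0.14 ± 0.12, 0.13 ± 0.08 and -0.11 ± 0.09, and the hearts of both groups overlapped for each. Without control replicate 3, which read 10.85 for Eif2s1 against 11.24 to 11.29 in the other controls, the difference of Eif2s1 was 0.04 ± 0.08. Eif2a, a separate factor that can bring initiator tRNA to the ribosome, read 8.78, 9.32, 9.32 and 9.30 in the controls and 9.42, 9.71 and 9.64 in the DKO hearts. All DKO hearts were above all controls, and the difference was 0.41 ± 0.16 (adjusted p = 0.169), or 0.27 ± 0.09 without control replicate 1 (adjusted p = 0.158). Eif2d, a factor of recycling and non-canonical initiation, differed by 0.29 ± 0.26 with control replicate 1 and by 0.04 ± 0.10 without it. Its brightest probe read 10.65 in that heart and 11.49 to 11.74 in the other controls, while its second probe read 9.85 there, within the 9.73 to 9.96 of the others.

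Of the 5 genes of eIF2B, the exchange factor that recycles eIF2, 3 were higher, 2 lower and 0 passed, with a median of 0.04. Eif2b5, which encodes the catalytic epsilon subunit, read 11.38, 11.41, 11.36 and 11.33 in the controls and 11.67, 11.64 and 11.65 in the DKO hearts. The groups did not overlap, and the difference of 0.28 ± 0.06 missed the threshold (adjusted p = 0.0542), though it passed when arrays were centred on the median of detected probes (0.0482). Eif2b3 (gamma), which with epsilon forms the catalytic subcomplex, read 10.13, 10.20, 10.12 and 10.12 in the controls and 10.40, 10.28 and 10.40 in the DKO hearts. Here too all DKO hearts were higher, by 0.22 ± 0.07 (adjusted p = 0.117). The genes of the regulatory subunits, Eif2b1, Eif2b2 and Eif2b4, differed by 0.04 ± 0.09, -0.02 ± 0.07 and -0.04 ± 0.11 with overlapping groups.

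Among the 14 genes of eIF3, 13 were higher in DKO and 1, Eif3j1, was lower, with a median of 0.16, and under quantile normalization 9 of 14 were higher with a median of 0.10. None passed the test. In 7 of them (Eif3a, Eif3c, Eif3e, Eif3g, Eif3h, Eif3i and Eif3k) every DKO heart was above every control. That is 50% of the 14, against 12.8% of all genes and 22.6% of the 5920 brightest. For Eif3i the highest control read 13.228 and the lowest DKO heart 13.229. It differed by 0.08 ± 0.07 (adjusted p = 0.482). Eif3e read 12.30, 12.38, 12.28 and 12.25 in the controls and 12.53, 12.74 and 12.72 in the DKO hearts. It had the largest difference of the complex, 0.36 ± 0.08 (adjusted p = 0.0551). Eif3g, an RNA-binding subunit that takes part in scanning, read 14.68, 14.70, 14.69 and 14.73 in the controls and 14.98, 15.01 and 14.93 in the DKO hearts, a difference of 0.27 ± 0.06 (adjusted p = 0.0615). The core scaffold genes Eif3a, Eif3b and Eif3c differed by 0.17 ± 0.07, 0.24 ± 0.09 and 0.31 ± 0.10. Eif3h differed by 0.20 ± 0.06 at its brightest probe and by 0.19 at its second. Eif3d, the subunit that can itself bind some caps, was more scattered, at 13.19 to 13.59 in the controls and 13.37 to 13.79 in the DKO hearts. The differences of Eif3f, Eif3k, Eif3l and Eif3m, between 0.06 and 0.11, were below 0 in at least 1 of the 5 other scalings. Eif3j1 and Eif3j2 are near-identical copies, so their signals (differences of -0.05 and 0.14) cannot be assigned with certainty.

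Of the 6 genes of the helicase group 4 were higher, with a median of 0.16 that came to 0.04 without control replicate 1. Eif4a2 rose as described, while Eif4a1, the closely similar form that most growing cells use, read 13.70, 13.84, 13.69 and 13.78 in the controls and 13.95, 13.89 and 13.77 in the DKO hearts. The groups overlapped and Eif4a1 differed by 0.12 ± 0.08 (adjusted p = 0.392), with the direction turned (-0.01) under at least 1 other scaling. The gap between the 2 forms was not tested. Eif4a3, the helicase of the exon junction complex, and its near-identical copy Eif4a3l1 differed by -0.09 ± 0.11 and -0.05 ± 0.08. Eif4h, which resembles part of Eif4b and also aids the helicase, read 13.37 in control replicate 1 and 14.15 to 14.28 in the other controls, against 14.09 to 14.30 in the DKO hearts. Its difference was 0.20 ± 0.23 with that heart and -0.01 ± 0.09 without it.

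The cap-binding genes held no call. Of the 7 genes, 2 were higher and 5 lower, the median was -0.02, and 0 had groups without overlap. The median stayed below 0 in the 5 other scalings, between -0.043 and -0.007. It was above 0 once control replicate 1, control replicate 2 or DKO replicate 2 was left out (0.0002, 0.0075 and 0.008). Eif4e, the cap-binding protein itself, read 11.00, 12.17, 12.14 and 11.95 in the controls and 11.63, 11.62 and 11.86 in the DKO hearts. Control replicate 1 lay below every DKO heart and the other controls above every one. The difference was -0.11 ± 0.29 (adjusted p = 0.835), and without control replicate 1 it was -0.38 ± 0.11 (adjusted p = 0.108), which did not pass either. Eif4e2 and Eif4e3, its relatives, differed by -0.02 ± 0.07 and -0.11 ± 0.20. Eif4e3 read 8.74 in control replicate 1 and 9.20 to 9.48 in the other controls, and without that heart its difference was -0.25 ± 0.16. Eif4ebp2 and Eif4ebp3, binding proteins that block eIF4E until mTORC1 phosphorylates them, differed by -0.02 ± 0.07 and 0.17 ± 0.10 (adjusted p = 0.903 and 0.329). Eif4e1b (-0.15 ± 0.25), a form typical of oocytes, and Eif4enif1 (0.02 ± 0.07), which takes eIF4E into the nucleus, also overlapped between groups.

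No gene of the eIF4G scaffold passed. Eif4g1 read 13.95, 14.09, 13.94 and 14.05 in the controls and 13.98, 13.99 and 14.12 in the DKO hearts, and the difference was 0.02 ± 0.08 (adjusted p = 0.87), below 0 in 4 of the 5 other scalings. Eif4g2 (also called DAP5), which lacks the part that binds eIF4E, read 12.25, 12.46, 12.17 and 12.46 in the controls and 12.13, 12.21 and 11.98 in the DKO hearts. The groups overlapped, and its difference of -0.23 ± 0.11 had the lowest adjusted p of the 21 lower genes (0.228). Eif4g2 had 3 probes, 2 lower in DKO and 1 higher. Eif4g3 differed by -0.04 ± 0.08 (adjusted p = 0.745).

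The eIF5 group was also without a call. Eif5a, which carries hypusine and helps ribosomes past difficult peptide bonds, read 16.10, 16.34, 16.06 and 16.07 in the controls and 16.48, 16.19 and 16.21 in the DKO hearts. Control replicate 2 and DKO replicate 1 were the high ones of their groups, and the difference was 0.15 ± 0.11 (adjusted p = 0.418). Its relative Eif5a2 differed by -0.12 ± 0.13 (adjusted p = 0.571). Eif5, the GTPase activator of eIF2, and Eif5b, the subunit-joining GTPase, differed by 0.02 ± 0.09 and 0.09 ± 0.12. Eif5 lies 19 measured genes away from Akt1 on chromosome 12, the closest of the 62 genes to a targeted locus, and Eif3k lies 44 from Akt2 on chromosome 7.

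Among the 10 genes named for eEF1, 7 were higher, 6 without overlap between groups, and 0 passed. Over all genes 12.8% were higher without overlap, and 22.6% of the 5920 brightest. The exchange factor eEF1B was uneven in its differences. Eef1d (delta) read 14.55, 14.53, 14.55 and 14.45 in the controls and 14.73, 14.70 and 14.80 in the DKO hearts. All DKO hearts were above all controls, by 0.23 ± 0.07 (adjusted p = 0.106), and the second Eef1d probe, with a difference of 0.33 ± 0.07, passed among probes (adjusted p = 0.0463). Eef1b2 (beta) read 14.70, 14.71, 14.72 and 14.66 in the controls and 14.89, 14.80 and 15.05 in the DKO hearts, a difference of 0.22 ± 0.08 (adjusted p = 0.156). Eef1g (gamma) read 14.84 to 14.87 in the controls and 14.80 to 14.90 in the DKO hearts, and its difference was -0.002 ± 0.06 (adjusted p = 0.991). Whether Eef1d and Eef1g differ in their response was not tested. Eef1e1, a scaffold of the tRNA synthetase complex, differed by 0.03 ± 0.16, and by -0.06 ± 0.15 without control replicate 1. The methyltransferases of eEF1A differed by -0.17 ± 0.08 for Eef1akmt1, -0.01 ± 0.07 for Eef1akmt2, 0.11 ± 0.07 for Eef1akmt4 and 0.26 ± 0.09 for Eef1aknmt, with adjusted p-values from 0.155 to 0.925.

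Eef2 stood alone in its group. Eef2k, the kinase that phosphorylates and halts eEF2, read 9.84, 9.77, 9.84 and 9.71 in the controls and 9.63, 9.66 and 9.78 in the DKO hearts. The groups overlapped, the difference was -0.10 ± 0.08 (adjusted p = 0.46), and its 3 NM probes gave differences of -0.10, -0.50 and -0.001. A dim Eef2k probe without an NM accession, above background on 6 arrays, gave 0.61 ± 0.36. Eef2kmt, a methyltransferase of eEF2, read 10.02, 10.10, 10.24 and 10.10 in the controls and 9.16, 9.96 and 9.98 in the DKO hearts. DKO replicate 1 was by far the lowest, the difference of -0.42 ± 0.21 did not pass (adjusted p = 0.252) and came to -0.15 without that heart, and the second Eef2kmt probe gave 0.18.

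Other genes of translation were read from lists by role. Among 24 kinases of eIF2 and other regulators, 2 rose and 0 fell (8.33%, against 4.54% of all genes), with a median of 0.06. Ppp1r15a (GADD34), which brings a phosphatase to eIF2 alpha and so reverses its phosphorylation, read 11.36, 11.23, 11.38 and 11.25 in the controls and 12.19, 12.29 and 12.56 in the DKO hearts. It rose by 1.05 ± 0.11 (2.07-fold, adjusted p = 0.00789). Mknk2, a kinase that phosphorylates eIF4E, read 14.59, 14.63, 14.68 and 14.55 in the controls and 15.17, 15.18 and 15.14 in the DKO hearts. It rose by 0.55 ± 0.07 (1.46-fold, adjusted p = 0.0121). The 4 eIF2 kinases did not pass. Eif2ak1, Eif2ak3 and Eif2ak4 differed by 0.04 ± 0.11, 0.22 ± 0.17 and -0.05 ± 0.07, and Eif2ak2 (PKR) by -0.55 ± 0.17 (adjusted p = 0.116), with all DKO hearts below all controls. Eif4ebp1, the main eIF4E binding protein, read 14.06, 13.74, 14.17 and 14.13 in the controls and 14.36, 14.69 and 14.53 in the DKO hearts. Its groups did not overlap, but the difference of 0.50 ± 0.13 missed the threshold (adjusted p = 0.0795).

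Among 20 partners of initiation (poly(A) and cap binding proteins, helicases and repressors) none passed in limma (3 at an unadjusted p under 0.05), 10 were higher and 10 lower, and the median was 0.004. Among 17 measured genes of elongation accessories, termination and recycling, 0 rose and 1 fell (5.88%, against 4.54% of all genes), with a median of 0.08. The gene that fell, Secisbp2, which serves selenocysteine insertion, read 9.69, 9.61, 9.51 and 9.44 in the controls and 9.18, 8.90 and 9.02 in the DKO hearts, and fell by 0.53 on the log2 scale (standard error 0.10, adjusted p = 0.0368). Among 10 measured factors of mitochondrial translation 0 passed in limma (5 at an unadjusted p under 0.05), 7 were lower, 5 of these without overlap, and the median was -0.21. Over all genes 12.8% were lower without overlap, and 3338 of 23678 were lower at an unadjusted p under 0.05. The medians of these lists and of the 62 genes are descriptions, and the difference between the cytosolic and the mitochondrial factors was not tested.

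**Figure D5:**
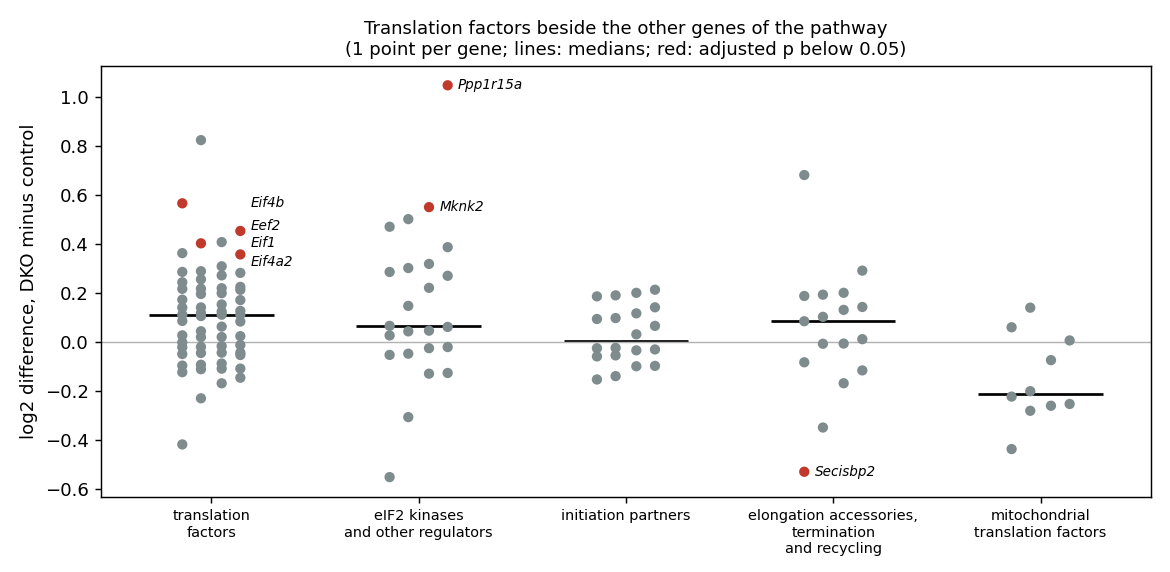
Log2 difference, DKO minus control, for the 62 translation factors and for the other lists of translation genes, with 1 point per gene, a line at the median of each list and red for an adjusted p under 0.05. Ppp1r15a and Mknk2 are the called genes of the regulators, Secisbp2 is the only called gene below 0, and the mitochondrial factors have their median at -0.21.

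Some facts of the series stand beside these results. Between 53.0% and 57.6% of spots were well above background on an array, 0 spots were saturated, and precision is limited by how few arrays there are. Akt2 fell by 2.05 on the log2 scale (4.15-fold, adjusted p = 0.00025) at its brightest probe, with differences of -2.29 and -0.69 at the others. The 2 probes of Akt1 differed by 0.16 and 0.46 without passing (adjusted p = 0.209 and 0.153), and the files do not place either in or out of the deleted exons, so the loss of Akt1 is not checked here. All 8 cardiomyocyte markers were above background and 0 passed, with a median difference of -0.07. The log2 of their summed linear signals was 20.50 to 20.57 in the controls and 20.44 to 20.64 in the DKO hearts. The sums for endothelial, mural, fibroblast, nerve and atrial markers are given likewise. All 6 endothelial markers were higher without a call (median 0.19, summed 14.28 to 14.63 in the controls and 14.64 to 14.68 in the DKO hearts). Of 6 mural markers 4 were higher, Myh11 past the test (0.63 ± 0.13, adjusted p = 0.0479), with sums of 15.79 to 16.09 and 15.72 to 15.96. The 2 lower ones were Acta2 and Cspg4 (-0.01 ± 0.10). Acta2, the brightest of the 6 with a control mean of 15.49, differed by -0.41 ± 0.14 without passing (adjusted p = 0.13). Of 7 fibroblast markers 6 were higher and 0 passed (sums of 16.71 to 16.78 and 16.77 to 17.01). Of 4 nerve markers 3 were higher, while Dbh fell by 1.80 (adjusted p = 0.00354) and the sums were 11.52 to 11.66 and 10.62 to 10.89. No gene passed among 5 macrophage, 3 measured lymphocyte, 2 red cell, 1 adipocyte, 4 skeletal muscle and 3 atrial markers, and Cd79a and Plin1 were above background on 0 arrays. The atrial sums were 15.99 to 16.71 in the controls and 16.92 to 17.50 in the DKO hearts. Nppa, listed as both an atrial and a cardiomyocyte marker, differed by 0.81 ± 0.21 (adjusted p = 0.0767) without overlap. The atrial markers Myl7 (above background on 4 arrays) and Myl4 were lower, by -1.10 ± 0.47 and -0.43 ± 0.16. The part of these cells in the differences of the translation factors was not tested.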

How the data were processed

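Total RNA of heart apex was labelled with Cy3 and hybridised to single-colour Agilent arrays, all 7 on 1 slide read in 1 scan, per the labels' protocols and the file headers. The authors quantified the images with Feature Extraction 12.0.3.1, as the headers state. For each of 62976 spots the deposited files give a background-subtracted processed intensity (linear scale), the median signal and local background intensities, and flags. The series value table that the authors deposited is on a log2 scale. Its values matched (r from 0.9994 to 0.9996 across probes) the processed signals after quantile normalization and centring of each probe on its median over the arrays. Its columns have a median of 0, and its software is not named here.

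Without control and outlier-flagged spots, log2 processed signals were centred on each array's 75th percentile (mean 9.11 added back) and averaged over the spots of a probe. Accessions were turned into symbols with RefSeq of GRCm38.p6. Of 56605 probes 32994 matched a symbol and 30466 were kept, being well above background on at least 3 arrays with no missing value. A gene took its brightest kept NM probe, or its brightest kept probe where it had none, which gave 23678 genes, 14722 with a symbol. The test was limma's (version 3.58.1, R 4.3.3; lmFit and eBayes with group alone), two-sided, with Benjamini-Hochberg adjustment over all genes and a threshold of 0.05; probes were adjusted over all kept probes. Differences are DKO minus control with their standard errors, for 4 control and 3 DKO hearts. The labels give 1 sample per animal. The scripts were tested on simulated data.

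The genes with full values were those past the threshold, those with the smallest p in each role group and fixed sets of paralogs. Members and lists were chosen with earlier results of these data known. The alternatives were 5 other scalings, 2 filters on dim probes, 2 rules for a gene's probe, 2 variance models, array weights, the replicate number or the slide row as a block, and each array left out. The files have no mean signal column, so normexp (offset 50) used the median signal.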

Additional observations from a re-analysis of the deposited data

Results flagged for a closer look

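In the 4 control hearts, 7 of the 62 translation factor genes had a single heart far from the other 3, its gap to the nearest being above Dixon's critical value for the share of the group's range. Chance gives such a gap in about 1 of 20 groups. Control replicate 1 was the low heart for 3 of the genes: Eef1a2 at 11.153 (others 13.41 to 13.59), Eif2a at 8.7766 (others 9.30 to 9.32) and Eif4h at 13.367 (others 14.15 to 14.28). Control replicate 2 was the high heart for another 3: Eif2b1 at 10.952 (others 10.81 to 10.83), Eif2b3 at 10.2 (others 10.12 to 10.13) and Eif5a at 16.336 (others 16.06 to 16.10). Control replicate 3 was the low heart for Eif2s1, at 10.852 (others 11.24 to 11.29), and without it the difference of Eif2s1 was 0.04 in place of 0.14. None of the 4 genes that rose was among them.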

How the results depend on the processing

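The count of translation factor genes past the threshold, 4 as reported, was 2 under quantile normalization, 2 under normexp, 1 under normexp with quantile normalization, 0 without a filter on dim probes, 7 with the filter on all 7 arrays, 9 with a trended variance, 7 with array weights and 0 with the slide row as a block. It ran from 0 to 3 when single hearts were left out. Every such call was higher in DKO. The count over all genes, 1074 as reported, was 523 under normexp, 657 under normexp with quantile normalization, 120 without a filter, 1996 with a trended variance, 1642 with array weights and 225 with the slide row as a block, and 166 to 927 with a single heart left out. Without control replicate 2, of the 927 genes called 317 were higher and 610 lower, against 533 and 541 as reported. The median of the 62 genes, 0.11 as reported, was 0.0368 under quantile normalization, 0.0664 under normexp with quantile normalization, 0.0502 in the authors' values, 0.0862 with array weights, 0.0828 with the slide row as a block, and 0.0568 to 0.128 with a single heart left out. The number higher ran from 36 to 45. Over the 21 alternatives, 37 of the 62 genes kept their direction in all, 29 of the 41 higher and 8 of the 21 lower. Genes called in some alternative only were Eef1d, Eif2b5, Eif3e, Eif3g and Eif3h. The cause of these changes was not tested, and the fits that leave a heart out also have fewer hearts.

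With the replicate number as a block 0 of the 62 genes and 1 of all genes were called, with a median of 0.0989 over the 62 and adjusted p-values of 0.15 for Eef2, 0.183 for Eif1, 0.177 for Eif4a2 and 0.141 for Eif4b. Control replicate 4 has no partner and drops out of that fit. Same-numbered hearts deviated together at correlations of 0.13, 0.007 and 0.032, and not every heart correlated best with its own number. With so few hearts these values cannot decide whether the numbers pair the hearts.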
